A study of Mus musculus with 24 samples.

Results

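Liver transcripts of old and young mice were compared around lights on, using the libraries taken at zeitgeber time 22 (ZT22, 22 h after lights on, near the end of the dark phase) and at ZT2 (2 h after lights on). These were 8 of the 24 libraries of a series that sampled mouse liver at 6 times of day at both ages, and they were chosen by time alone. All mice were wild type C57BL/6, an inbred laboratory strain. Young mice were about 4 months old and old mice about 19 months old, and each age had 2 libraries at ZT22 and 2 at ZT2. Messenger RNA was selected from total RNA of frozen liver and read as single 50-base reads. The labels do not say whether replicates were separate animals, which sex was used or what a replicate number stands for, so p-values measure only the spread between these samples, which may be technical.

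The hours around lights on are the end of the active and feeding phase of a nocturnal animal and the start of its rest phase. In liver, the molecular clock switches limbs at this point: repressors such as Cry1 decline while the nuclear receptor genes Nr1d1 and Nr1d2 rise, and many genes of lipid, drug and sugar metabolism follow. Liver also holds resident macrophages and is a source of acute phase proteins, and its cells respond to interferons through transcription factors that bind short GAAA-rich promoter elements.

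Values are TPM, a length-corrected measure of transcript abundance, scaled between libraries and written here as scaled TPM. Depth was equivalent to 9.68 to 12.5 M reads of 50 bases per library (median 10.1 M), and 15999 to 16413 genes were above 0. The hepatocyte marker albumin (Alb) ranged from 58054 to 77106 scaled TPM, and the summed level of 12 hepatocyte markers overlapped between ages. Of 12 pancreatic acinar markers, 11 were at 0 in all 8 libraries. The mitochondrial share of TPM was 10.7% to 17.1%, highest in young ZT22 replicate 1. The acute phase genes of old ZT2 replicate 1 stood apart, as given below with those genes.

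Few single genes differed by age at these 2 times. Of 12155 genes tested, 4 were higher in old (0.0329%) and 0 lower (0%) at an adjusted p under 0.05 (limma with time as a covariate, Benjamini-Hochberg). This fit did not include the replicate number. At an unadjusted p under 0.05, 303 genes (2.49%) were higher and 314 (2.58%) lower, 617 (5.08%) in all. That is about the share that chance alone gives at this p. Both old libraries lay above both young ones at ZT22 and again at ZT2 for 362 genes (2.98%), and below them for 372 (3.06%). A random order of the libraries within each time gives shares of about this size. The median log2 difference, old minus young, over all tested genes was -0.0045. Deviations of same-numbered libraries correlated across groups, which does not show that the numbers pair them. With the number as a block in the fit 0 genes passed. The smallest adjusted p was then 0.0694 (limma), and 963 genes were at an unadjusted p under 0.05.

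Fitm1, which encodes an endoplasmic reticulum protein of lipid droplet formation, had higher values in old liver. Its scaled TPM in young were 19.0 and 19.2 at ZT22 and 21.999 and 24.1 at ZT2, and in old 63.9 and 53.1 at ZT22 and 49.2 and 55.8 at ZT2. Every old library was above every young one at both times, with means of 21.1 ± 2.47 (SD, n = 4) in young and 55.5 ± 6.23 in old. The log2 difference was 1.38 ± 0.13 (SE, limma adjusted p = 0.0341). Fitm1 lies on chromosome 14 from 55575617 to 55576952 (GRCm38, plus strand, as the files give it).

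Serpine2, which encodes a secreted inhibitor of thrombin and urokinase, had higher values in old as well. In young it had 9.12 and 7.81 scaled TPM at ZT22 and 7.13 and 8.16 at ZT2, against 23.7 and 25.6 at ZT22 and 18.5 and 15.7 at ZT2 in old. The ages did not overlap, and the log2 difference was 1.30 ± 0.13 (limma adjusted p = 0.0341). Serpine2 lies on chromosome 1 from 79794197 to 79861180 (GRCm38, minus strand). Without any 1 of the 8 libraries, neither gene passed: the adjusted p ranged from 0.0691 to 0.160 for Fitm1 and from 0.0704 to 0.190 for Serpine2, with the direction kept each time.

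The other two called genes were an immunoglobulin segment and a predicted gene. Igkv5-39, a variable segment of the immunoglobulin kappa light chain, was listed at 0 in 3 of 4 young libraries and at 0.60 scaled TPM in young ZT22 replicate 1. In old it had 4.18 and 9.53 scaled TPM at ZT22 and 4.94 and 11.2 at ZT2 (limma adjusted p = 0.0394). Variable segments of 1 family can be closely alike, so reads may be divided between them. The predicted gene Gm13248 had 1.20 to 1.89 scaled TPM in young and 5.66 to 6.49 in old, with a log2 difference of 1.72 ± 0.18 (limma adjusted p = 0.0341). It is named outside the rule for named genes because it was 1 of only 4 called. With the replicate number as a block, each of the 4 had an adjusted p of 0.0694 (limma). The mean age difference over ZT6, ZT10, ZT14 and ZT18 had the same direction for each. It was log2 1.18 for Fitm1, 1.45 for Serpine2, 3.50 for Igkv5-39 and 1.28 for Gm13248. When each library was left out in turn, Igkv5-39 and Gm13248 each passed in 1 of 8 fits.

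The remaining named genes, chosen by smallest p among genes with at least 5 scaled TPM in the higher age and leaving out predicted genes and clone names, did not pass the threshold, and their values follow with no change claimed. Among those higher in old, Serpinb1a, an inhibitor of neutrophil proteases, had 1.98 to 6.02 scaled TPM in young and 10.1 to 14.7 in old (log2 1.77 ± 0.24, limma adjusted p = 0.0855). Clstn3 had 2.05 to 3.28 scaled TPM in young and 5.13 to 7.19 in old (log2 1.13 ± 0.18). Unc13b, a vesicle priming factor, had 1.03 to 2.89 scaled TPM in young and 5.09 to 8.22 in old (log2 1.53 ± 0.26). For these 3 genes the ages did not overlap. The other named genes with higher values, Ighg2c, Ighg2b, Igkc and Cxcl1, are given with their groups.

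Among genes lower in old, the 10 named were Ifit1, Ifit3, Cyp3a11, Usp18, Gbp6, Ergic2, Tceal8, Ly6a, Isg15 and Tgtp1, and 2 predicted genes or clone names had smaller p-values than the last of them and were left out. Ifit1, Ifit3, Usp18 and Isg15 belong to the interferon-response list described below. Ergic2, a protein of traffic between the endoplasmic reticulum and the Golgi apparatus, had 66.6 to 98.3 scaled TPM in young and 42.8 to 61.9 in old (log2 -0.72 ± 0.14, limma adjusted p = 0.271). Tceal8 had 6.89 to 15.8 scaled TPM in young and 2.80 to 4.64 in old (log2 -1.37 ± 0.27). Ly6a, which encodes the surface antigen Sca-1, had 32.1 to 45.2 scaled TPM in young and 16.6 to 26.2 in old (log2 -0.82 ± 0.16). The ages did not overlap for any of the 10.

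**Figure D1:**
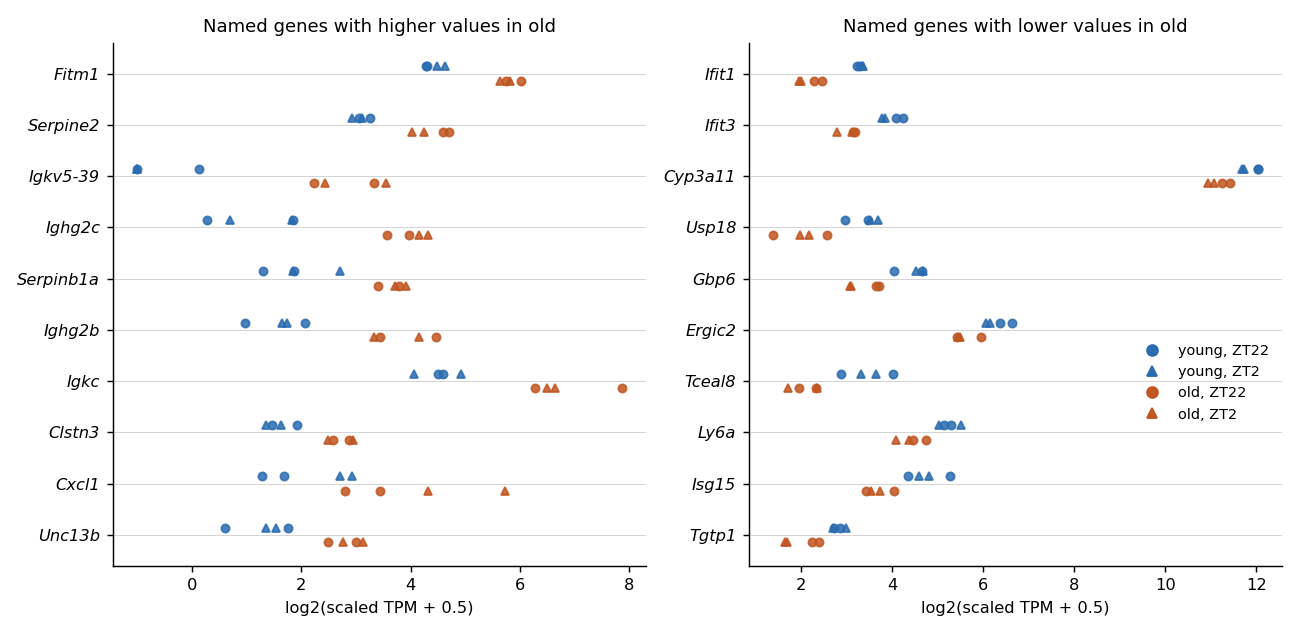
Each library's log2(scaled TPM + 0.5) for the 10 named genes in each direction (smallest p-values with at least 5 scaled TPM in the higher age, predicted genes and clone names left out), young in blue, old in orange, circles ZT22, triangles ZT2. Fitm1, Serpine2 and Igkv5-39 passed the threshold, and the 4 old libraries lie on one side of the 4 young ones for every gene except Cxcl1, whose ages part only within each time.

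The interferon-response list had lower values in old at these times. Of 27 listed genes 25 were tested, and 23 of the 25 had a lower fitted value in old, where 51% of all tested genes did and 49% were higher. Of the 25, 14 had an unadjusted p under 0.05 and lay lower, where 2.58% of all tested genes did, and 0 lay higher. This list and those below were chosen with earlier results of these data known. Their counts beside the shares of all genes are therefore descriptions and not independent support. No member passed the adjusted threshold. The median log2 difference was -0.49, beside -0.0045 over all genes, and 12 members separated lower at both times, where 3.06% of all genes did. The summed level of the 25 genes was 656 to 701 scaled TPM in the 4 young libraries and 481 to 566 in the 4 old ones, with no overlap.

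The members include proteins that block viral RNA and proteins that control the response itself. Ifit1 binds foreign capped RNA and had 9.36 and 8.92 scaled TPM at ZT22 and 9.81 and 9.58 at ZT2 in young, against 4.35, 4.98, 3.53 and 3.39 in old in the same order. The young values lay within 8.92 to 9.81 and every old value was below 5 scaled TPM, with a log2 difference of -1.13 ± 0.14 (limma adjusted p = 0.0756). Ifit3, its partner, had 18.5, 16.5, 13.9 and 13.3 scaled TPM in young and 8.56, 8.27, 8.16 and 6.43 in old (log2 -0.94 ± 0.12, limma adjusted p = 0.0759). Both genes lay lower in all 4 old libraries than in any young one.

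Usp18 and Isg15 form an opposed pair: Isg15 is a ubiquitin-like protein attached to other proteins, and Usp18 removes it and damps signalling at the interferon receptor. Usp18 had 7.29, 10.5, 10.96 and 12.4 scaled TPM in young and 2.12, 5.41, 3.42 and 4.06 in old (log2 -1.38 ± 0.26, limma adjusted p = 0.247). Isg15 had 38.0, 20.0, 27.7 and 23.7 scaled TPM in young and 16.1, 10.2, 11.1 and 12.8 in old (log2 -1.07 ± 0.22, limma adjusted p = 0.284). Both were low in every old library.

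Lower values were also found for Rsad2, the antiviral enzyme viperin, with 4.43 to 6.67 scaled TPM in young and 2.18 to 3.61 in old, and for Irf7, a transcription factor that amplifies interferon production, with 27.6 to 54.5 in young and 17.96 to 28.0 in old. Irf7 overlapped across times but not within either time. Stat2, a signalling factor of this response, had 8.44 to 15.03 scaled TPM in young and 10.1 to 13.4 in old, overlapping between ages (log2 0.03 ± 0.19). Irf9, its partner, had 16.8 to 22.8 scaled TPM in young and 7.22 to 18.3 in old (log2 -0.55 ± 0.22).

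Several interferon-inducible GTPases were in the list or among the named genes. Irgm1, which acts on vacuoles that hold microbes, had 54.3 to 75.1 scaled TPM in young and 46.0 to 52.5 in old (log2 -0.41 ± 0.12). Gbp3 had 5.15 to 8.76 scaled TPM in young and 3.35 to 5.79 in old. Gbp6, outside the list, had a mean of 22.1 ± 4.25 scaled TPM (SD, n = 4) in young and 10.2 ± 2.49 in old (log2 -1.09 ± 0.21, limma adjusted p = 0.257). Tgtp1 had 6.02 to 7.402 scaled TPM in young and 2.65 to 4.79 in old. It has a near-identical neighbour, Tgtp2, at 5.65 to 6.75 in young and 2.74 to 5.19 in old, so the 2 cannot be told apart with certainty. Interferon-induced chemokines had the same direction: Cxcl10 had 4.02 to 5.71 scaled TPM in young and 1.44 to 3.74 in old, and Cxcl9 8.002 to 16.1 and 4.39 to 11.7, the latter overlapping between ages.

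Promoter sequences of the list members were read for the GAAA-rich elements named above. The letters GAAA, then 2 bases of any kind, then GAAA, the core of the interferon-stimulated response element, were searched on both strands of the 250 bases before each gene's start in RefSeq sequences (build GRCm38.p6), and matches may overlap. They occurred in at least 1 promoter of 936 of 27025 genes (3.46%) and of 11 of the 21 tested list members with a promoter in that set (52.4%). Of the 11 members with a promoter that separated lower at both times 7 had a match, and of the 10 others 4 had one. A match is a description of the letters only. The list was made of genes of the interferon response, so its share of matches says nothing about the age difference. Shown here, because they carry a match and include the members with the clearest lower values, are the 170 bases before the start of 6 genes, 5′ to 3′ on the gene's strand, with the matches in capitals.
Ifit1 (chr19:34640719-34640888, plus strand): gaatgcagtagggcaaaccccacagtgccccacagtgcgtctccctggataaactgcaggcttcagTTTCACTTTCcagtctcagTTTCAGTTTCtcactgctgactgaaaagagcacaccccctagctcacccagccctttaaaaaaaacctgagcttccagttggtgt
Ifit3 (chr19:34583359-34583528, plus strand): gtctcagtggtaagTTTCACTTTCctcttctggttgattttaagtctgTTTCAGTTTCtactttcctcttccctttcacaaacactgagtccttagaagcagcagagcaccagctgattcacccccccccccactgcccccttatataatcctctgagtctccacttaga
Isg15 (chr4:156200819-156200988, minus strand): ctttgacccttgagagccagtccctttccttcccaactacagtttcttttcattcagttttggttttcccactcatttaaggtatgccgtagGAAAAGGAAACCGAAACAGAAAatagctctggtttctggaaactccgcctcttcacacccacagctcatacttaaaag
Rsad2 (chr12:26456453-26456622, minus strand): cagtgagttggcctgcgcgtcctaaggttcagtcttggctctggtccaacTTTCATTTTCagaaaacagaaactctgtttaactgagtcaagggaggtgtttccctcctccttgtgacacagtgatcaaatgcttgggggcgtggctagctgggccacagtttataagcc
Irgm1 (chr11:48871421-48871590, minus strand): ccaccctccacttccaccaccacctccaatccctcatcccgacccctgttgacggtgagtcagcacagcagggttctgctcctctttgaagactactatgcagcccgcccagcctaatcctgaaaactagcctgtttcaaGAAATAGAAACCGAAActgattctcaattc
Gbp3 (chr3:142559874-142560043, plus strand): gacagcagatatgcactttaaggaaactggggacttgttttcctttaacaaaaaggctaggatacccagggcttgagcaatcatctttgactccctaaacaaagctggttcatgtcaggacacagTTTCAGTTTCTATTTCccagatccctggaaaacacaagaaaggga

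In Ifit1, Ifit3, Rsad2 and Gbp3 the match lies on the opposite strand and reads as TTTC repeats, and in Isg15 and Irgm1 it lies on the gene's own strand. The runs in Isg15, Irgm1 and Gbp3 are overlapping matches. Rsad2 has 1 match and Isg15 has 3.

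**Figure D2:**
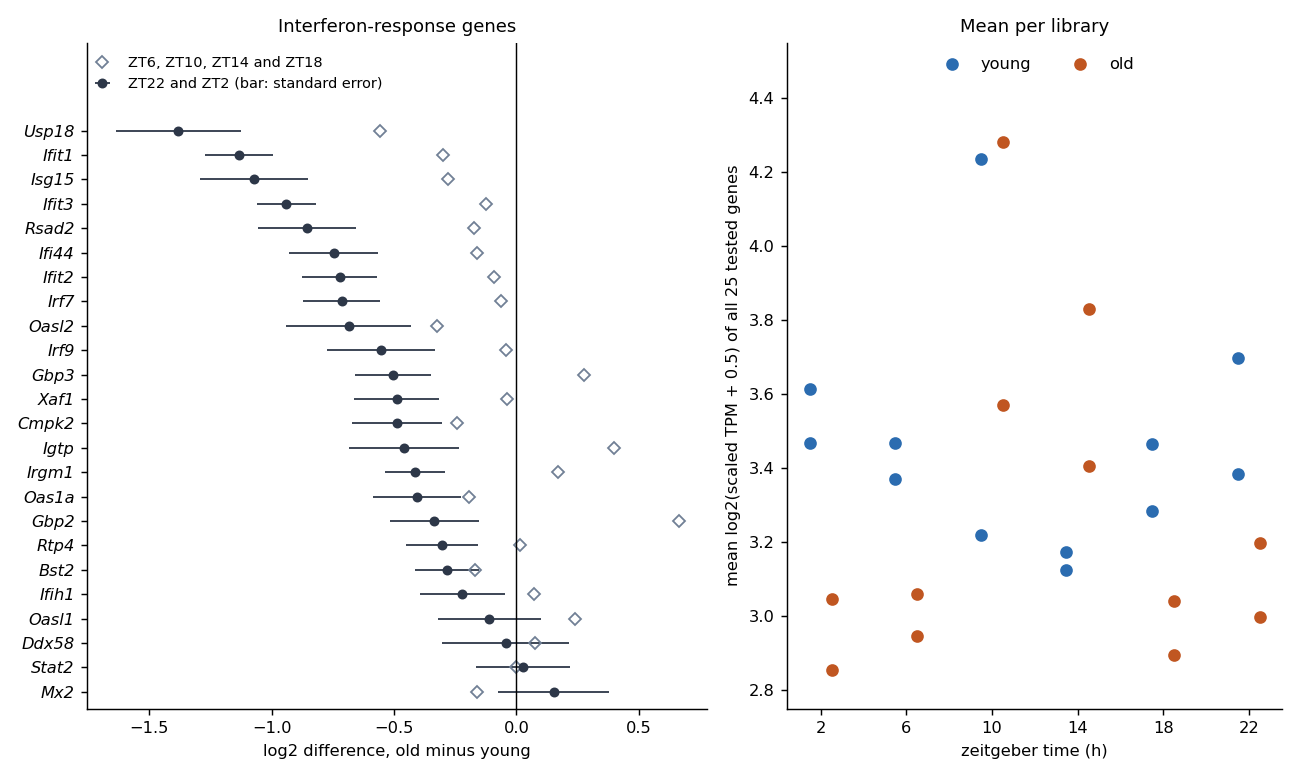
Left, the log2 difference, old minus young, of 24 tested interferon-response genes at ZT22 and ZT2 (points, bars are standard errors) and at the other 4 times (diamonds). Right, each library's mean log2(scaled TPM + 0.5) over all 25 tested genes against time of day, with 2 libraries per age and time: old lies below young at ZT18, ZT22, ZT2 and ZT6, above at ZT14, and the ages overlap at ZT10.

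Lower interferon values in old were also found at other hours. The median log2 difference of the list was -0.27 at ZT22 and -0.56 at ZT2, and also -0.40 at ZT6 and -0.40 at ZT18, but 0.08 at ZT10 and 0.46 at ZT14. At ZT14, 24 of 25 members had higher fitted values in old, and at ZT10 the young libraries themselves ran from a list mean of 3.22 to 4.24 on the log2 scale. In the test of ZT22 and ZT2 against the other 4 times, 8 of the 25 members had an unadjusted p under 0.05, where 2.61% of all tested genes did, and 0 passed after adjustment (0% in either direction). Those 8 were Ifit1, Ifit3, Irf7, Irf9, Igtp, Irgm1, Gbp2 and Gbp3, each with the more negative difference at ZT22 and ZT2. Irgm1 differed by log2 -0.59 (limma unadjusted p = 0.00458) and Gbp2 by -0.997 (limma unadjusted p = 0.00450).

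Immunoglobulin transcripts were higher in old. Of 15 plasma cell and immunoglobulin markers 9 were tested, 8 had an unadjusted p under 0.05 and lay higher, where 2.49% of all tested genes did, and 7 separated at both times (2.98% of all genes). No member passed the adjusted threshold, and the median log2 difference was 1.91. In bulk tissue, more cells of a type and more RNA per cell cannot be told apart.

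Igkc, the constant region of the kappa light chain, had 23.6, 22.1, 16.3 and 29.6 scaled TPM in young and 76.4, 233, 89.5 and 99.3 in old (log2 2.30 ± 0.34, limma adjusted p = 0.117). Old ZT22 replicate 2 was highest, and it was also highest for Ighm, the IgM heavy chain, with 113 scaled TPM against 24.8 to 39.3 in the other old libraries and 7.08 to 9.85 in young. Ighg2c, an IgG heavy chain, had 0.71 to 3.10 scaled TPM in young and 11.3 to 19.5 in old (log2 2.84 ± 0.37, limma adjusted p = 0.0759). Ighg2b had 1.48 to 3.71 in young and 9.597 to 21.5 in old (log2 2.24 ± 0.32, limma adjusted p = 0.117).

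Jchain, which links IgM and IgA subunits, had 2.27 to 6.67 scaled TPM in young and 11.9 to 27.9 in old. Derl3, a protein of secretory cells that is not specific to plasma cells, was the exception, with 2.45 to 4.40 in young and 2.31 to 4.14 in old. Of 7 B cell markers only 1 reached the filter, and the summed level of the 7 was 0.85 to 4.27 scaled TPM in young and 2.23 to 4.99 in old. The median difference of the immunoglobulin list was 2.25 at the other 4 times, and 0 members had an unadjusted p under 0.05 for a difference between the 2 sets of times.

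Acute phase proteins, which hepatocytes secrete during inflammation, had their highest mean level among the old libraries in old ZT2 replicate 1. Of 23 tested, 3 had an unadjusted p under 0.05 and lay higher (2.49% of all genes), 0 lay lower, and the median log2 difference was 0.27. Serum amyloid Saa2 had 64.0, 32.4, 117 and 27.1 scaled TPM in young and 54.1, 38.4, 1720 and 37.6 in old, the high value being that of old ZT2 replicate 1. Saa1 had 2564 scaled TPM in that library and 69.4 to 381 in the other 7. The iron-binding lipocalin Lcn2 had 72.0 scaled TPM there and 3.14 to 9.06 in the others.

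Without old ZT2 replicate 1, the median of the acute phase list was 0.08 and 2 members had an unadjusted p under 0.05. There were 6 without old ZT2 replicate 2 and 5 without young ZT22 replicate 2. Over all tested genes 488 and 1134 were then at that p in either direction, against 617 with all 8 libraries. The 3 members at that level with all libraries were Saa4, Orm3 and Steap4. Steap4, a metalloreductase, had 30.3 to 45.1 scaled TPM in young and 46.1 to 54.8 in old (log2 0.54 ± 0.15), and Saa4 had 129 to 158 in young and 158 to 219 in old (log2 0.43 ± 0.14). Neither passed the adjusted threshold. At the other 4 times the median of the list was 0.58, with 1.28 at ZT10 and -0.04 at ZT18.

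Chemokine values went both ways. Cxcl1, which attracts neutrophils, had 2.71, 1.92, 6.06 and 7.12 scaled TPM in young and 6.48, 10.4, 52.1 and 19.4 in old (log2 1.92 ± 0.31, limma adjusted p = 0.146). Old ZT2 replicate 1 was again the highest, and within each time the ages did not overlap. Cxcl13, a B cell attractant, had 2.06 to 5.40 scaled TPM in young and 5.51 to 7.78 in old. With Cxcl9 and Cxcl10 lower, 2 of 12 chemokines lay higher and 2 lower at an unadjusted p under 0.05, where 2.49% of all tested genes lay higher and 2.58% lower, and the median log2 difference was -0.0088.

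Immediate early genes, which respond within minutes to growth and stress signals, had 2 of 12 members higher at an unadjusted p under 0.05 and 0 lower, with a median log2 difference of 0.29, where 2.49% of all tested genes lay higher at that p. Without old ZT2 replicate 2 the median was 0.04 and 0 members were at that p, and 0 were without either young ZT2 library. Junb had 5.89, 5.84, 13.2 and 16.1 scaled TPM in young and 5.30, 9.08, 21.6 and 36.9 in old, and Ier2 12.7, 14.5, 19.2 and 18.2 in young and 15.7, 15.3, 25.1 and 41.7 in old. For both, old ZT2 replicate 2 was the highest, and at ZT22 the Junb values of the ages overlapped.

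Macrophage markers as a whole differed little. The summed level of 14 Kupffer cell and macrophage markers was 496 to 604 scaled TPM in young and 479 to 607 in old. Only Marco, a scavenger receptor, had an unadjusted p under 0.05, and it lay higher, where 2.49% of all tested genes did. At both times 2 of the 14 separated higher and 1 lower, where 2.98% and 3.06% of all tested genes did. Marco had 9.92, 6.03, 3.86 and 4.87 scaled TPM in young and 11.9, 24.97, 16.2 and 16.1 in old (log2 1.45 ± 0.27, limma adjusted p = 0.247). The summed level of 12 neutrophil markers was 4.45 to 22.9 scaled TPM in young and 19.6 to 34.1 in old, with 5 of the 12 at 0 in all 8 libraries. Its part in the values of Serpinb1a and Cxcl1 was not tested.

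**Figure D3:**
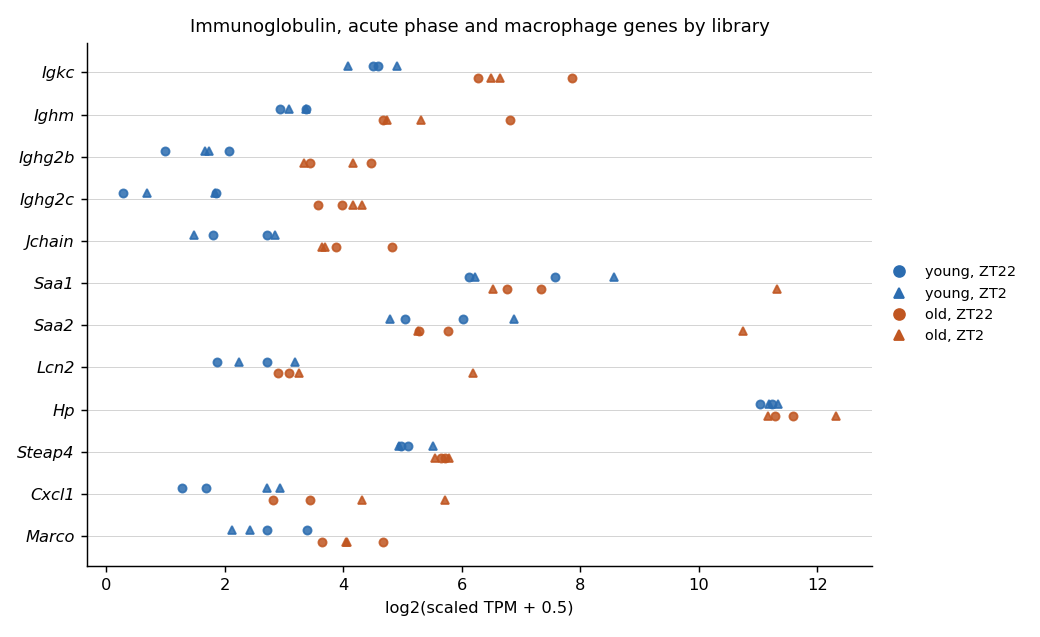
Each library's log2(scaled TPM + 0.5) for immunoglobulin, acute phase, chemokine and macrophage genes, young in blue, old in orange, circles ZT22, triangles ZT2. The old libraries lie above the young ones for the immunoglobulin genes and Marco, while for Saa1, Saa2 and Lcn2 a single old ZT2 library stands far to the right.

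Among cytochrome P450 genes of drug metabolism, Cyp3a11 had the smallest p. This main CYP3A enzyme of mouse liver had 4214.5, 4202.6, 3314.4 and 3387.4 scaled TPM in young and 2743.4, 2425.5, 2151.2 and 1954.6 in old. All old values were below all young ones, and both ages were lower at ZT2 than at ZT22, with a log2 age difference of -0.71 ± 0.12 (limma adjusted p = 0.178). The difference was -0.71 at ZT22 and -0.71 at ZT2. Cyp3a16, its near-identical neighbour, had 97.9, 104, 75.4 and 79.5 scaled TPM in young and was listed at 0 in 3 of 4 old libraries, the exception being old ZT2 replicate 1 with 52.2. It was listed at 0 in 14 of the 24 libraries of the series, so how reads were divided between these 2 genes cannot be told from the files.

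Of 22 tested P450s and their regulators, 1 had an unadjusted p under 0.05 and lay higher and 3 lower, where 2.49% and 2.58% of all tested genes did. Without young ZT2 replicate 1 there were 7 lower, and 5 without old ZT2 replicate 2. The higher one was Cyp2b9, a female-biased enzyme, with 0 to 2.83 scaled TPM in young and 2.84 to 10.1 in old. The xenobiotic receptor genes Nr1i2 and Nr1i3 (PXR and CAR) overlapped between ages, with log2 differences of -0.19 ± 0.12 and 0.30 ± 0.19. Among male-biased liver genes, Cyp4a12a, an arachidonic acid hydroxylase, had 162 to 291 scaled TPM in young and 130 to 159 in old (log2 -0.65 ± 0.17), and Nat8, an acetyltransferase, 42.3 to 59.7 and 59.5 to 121 (log2 0.87 ± 0.18). Neither passed the adjusted threshold, and 2 of 18 lay in each direction at an unadjusted p under 0.05, where 2.49% of all tested genes lay higher and 2.58% lower. Without young ZT2 replicate 1 there were 4 higher, and without old ZT22 replicate 1 there were 4 lower.

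Of 27 tested genes of fatty acid oxidation and PPARα targets, 3 had an unadjusted p under 0.05 and lay lower and 0 higher, where 2.58% of all tested genes lay lower and 2.49% higher, and none passed the adjusted threshold. The 3 were 5 without young ZT22 replicate 1. Cyp4a10, a fatty acid hydroxylase induced by PPARα, had 123, 226, 89.2 and 134 scaled TPM in young and 75.8, 72.0, 33.8 and 65.7 in old (log2 -1.19 ± 0.26, limma adjusted p = 0.369), with no overlap. Its near-identical relative Cyp4a31 had 10.7 to 33.3 in young and 3.31 to 10.5 in old, and the thioesterase Acot1 17.6 to 33.0 and 9.595 to 22.8.

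On the storage side, 3 of 22 lipogenesis and lipid droplet genes lay higher at an unadjusted p under 0.05 and 0 lower, where 2.49% of all tested genes lay higher. They were Fitm1, the only one past the adjusted threshold, the droplet fusion gene Cidec, with 0 to 0.47 scaled TPM in young and 1.05 to 5.33 in old, and Cidea, listed at 0 in all 4 young libraries and at 0, 3.52, 1.08 and 4.41 in old. Cidec and Cidea reached the filter only through their old values, so among tested genes they could only lie higher. Their part of the count is therefore no support for a difference. The medians of both lists were near that of all genes, at -0.07 for oxidation and 0.10 for storage. Without old ZT2 replicate 2 the storage median was -0.11, and without young ZT22 replicate 2 its 3 members at that p became 6. In that last fit 1134 of 12142 tested genes had an unadjusted p under 0.05 in either direction, against 617 of 12155 with all 8 libraries. Of 25 cholesterol synthesis genes 0 had an unadjusted p under 0.05, where 5.08% of all tested genes did in either direction. Of these 25, 20 had higher fitted values in old, where 49% of all tested genes did, with a median log2 difference of 0.09. At both times 2 separated higher, where 2.98% of all tested genes did.

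Respiratory chain genes had slightly lower fitted values in old, and none passed the adjusted threshold. Cytosolic ribosomal protein genes leaned the same way, with 23 of 28 fitted lower, where 51% of all tested genes were. Their median log2 difference was -0.05 and 0 had an unadjusted p under 0.05. Of 13 mitochondrially encoded genes 11 had lower fitted values in old, the median log2 difference was -0.20 and 0 had an unadjusted p under 0.05, where 51% of all tested genes had lower fitted values. At the other 4 times the median was -0.66, with -0.22 at ZT6, -0.01 at ZT10, -2.09 at ZT14 and -0.14 at ZT18, and the 2 old ZT14 libraries had mitochondrial shares of 3.42% and 8.74% of TPM. Of 28 nuclear-encoded subunits 26 had lower fitted values, with a median of -0.12, and 2 had an unadjusted p under 0.05 and lay lower, where 2.58% of all tested genes did: Uqcrc2 of complex III (log2 -0.38 ± 0.13) and Ndufs1 of complex I (log2 -0.32 ± 0.14). Without young ZT22 replicate 1, which held the highest mitochondrial share, the medians were -0.06 for the mitochondrially encoded genes and -0.04 for the nuclear-encoded ones, of which 20 had lower fitted values. mt-Co2 had 354 scaled TPM in young ZT2 replicate 1 and 606 in old ZT2 replicate 2 against 9770 to 19690 in the other 6, so its fit says little.

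**Figure D4:**
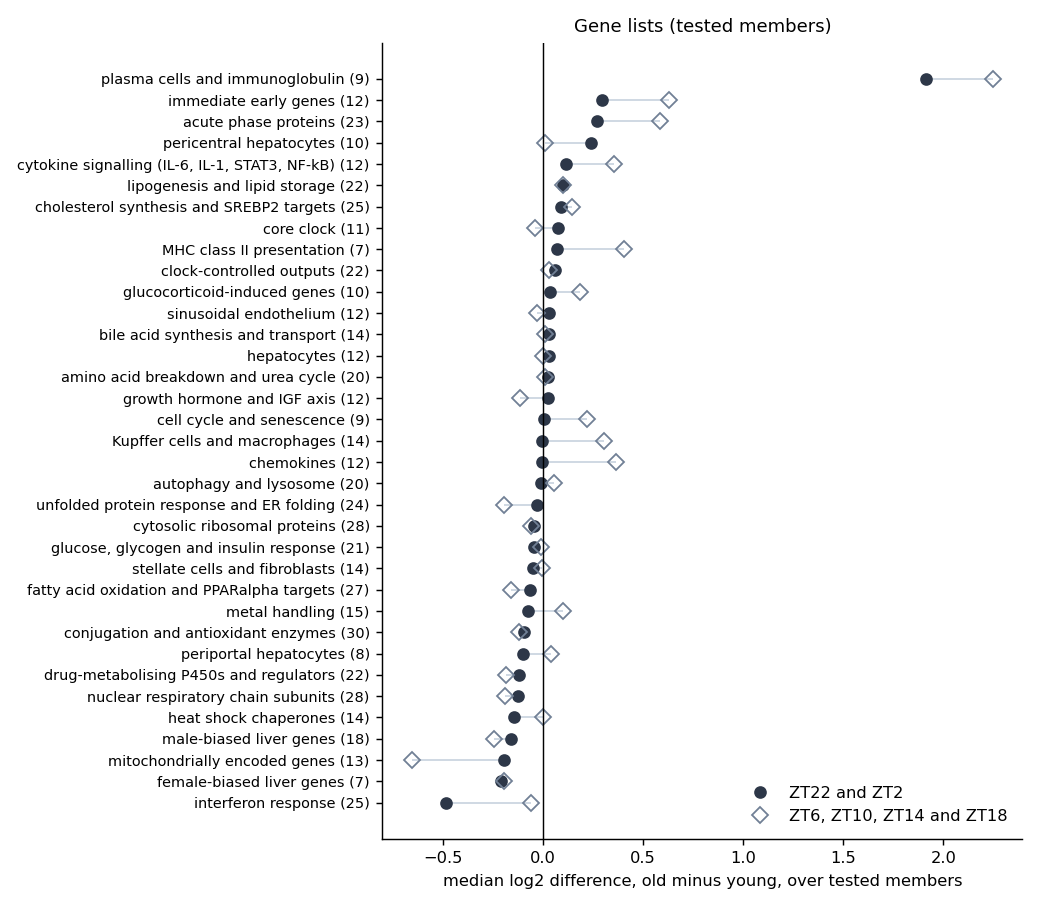
The median log2 difference, old minus young, of each gene list with at least 7 tested members (number in brackets), at ZT22 and ZT2 (filled) and at the other 4 times (open). Among the filled points the immunoglobulin list is farthest to the right at 1.91 and the interferon list farthest to the left at -0.49.

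The core clock did not separate by age at these hours. Of 15 listed genes 11 were tested, 0 had an unadjusted p under 0.05, 0 separated at both times, and the median log2 difference was 0.07. Of the activators, Arntl (BMAL1) had 10.6 to 13.8 scaled TPM in young and 11.9 to 14.6 in old, Clock 10.3 to 18.02 and 13.7 to 16.6, and Npas2 1.78 to 3.03 and 2.04 to 3.84. The ages overlapped for each, with log2 differences of 0.07 ± 0.12, 0.08 ± 0.18 and 0.03 ± 0.21.

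The repressors had similar levels in both ages, and Cry1 and Per2 were higher at ZT22 than at ZT2. Cry1 had 19.5 and 21.3 scaled TPM at ZT22 and 9.25 and 11.5 at ZT2 in young, and 20.7 and 20.6 at ZT22 and 8.86 and 9.18 at ZT2 in old (log2 age difference -0.09 ± 0.12). Per2 had 1.98 to 3.23 scaled TPM at ZT22 and 0.63 to 0.70 at ZT2 over both ages. Cry2 had 5.37 to 9.41 in young and 6.20 to 8.87 in old. Bhlhe40 ran from 10.04 to 33.6 in young and 13.6 to 35.3 in old (log2 0.32 ± 0.31).

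The nuclear receptor genes had lower values at ZT22 than at ZT2 in both ages. Nr1d1 (REV-ERBα) had 0.70 and 0.36 scaled TPM at ZT22 and 7.25 and 11.1 at ZT2 in young, and 0.57 and 0.11 at ZT22 and 11.1 and 18.7 at ZT2 in old. Nr1d2 had 3.03 and 3.87, then 5.87 and 6.75 in young, and 3.04 and 3.25, then 8.33 and 10.7 in old. At ZT2 both old libraries lay above both young ones for Nr1d2, and the log2 age differences over the 2 times were 0.16 ± 0.31 and 0.22 ± 0.18. Rora, which competes with these receptors, had a log2 difference of -0.03 ± 0.14. Per1, Per3, Ciart and Bhlhe41 were below the filter at these times, none above 2.08 scaled TPM in any library.

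**Figure D5:**
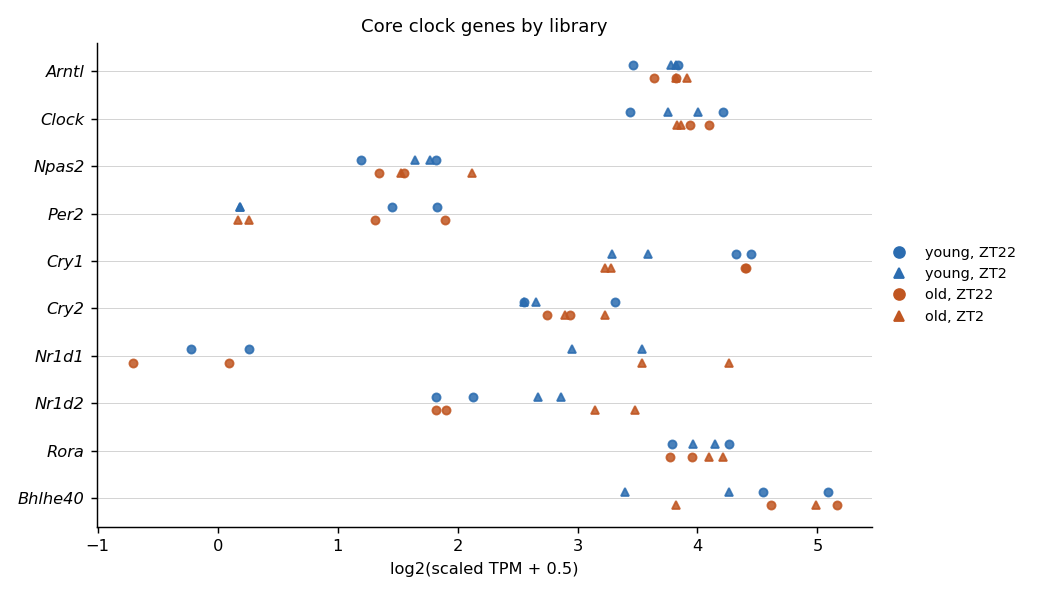
Each library's log2(scaled TPM + 0.5) for 10 tested core clock genes, young in blue, old in orange, circles ZT22, triangles ZT2. Circles and triangles part for Cry1, Per2, Nr1d1 and Nr1d2, and the colours overlap within most of these sets.

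Among 22 clock-controlled outputs, 2 lay higher and 2 lower in old at an unadjusted p under 0.05, where 2.49% and 2.58% of all tested genes did, and 0 passed the adjusted threshold. Upp2, a uridine phosphorylase, had 144, 158, 89.6 and 70.0 scaled TPM in young and 98.8, 90.1, 67.8 and 61.5 in old (log2 -0.48 ± 0.13), lower in old at each time. Nampt, the rate-limiting enzyme of NAD salvage, had 26.8, 22.9, 16.6 and 20.2 in young and 20.9, 22.1, 14.5 and 13.3 in old. Hlf, a PAR bZIP factor driven by the clock, had 5.56 to 10.1 scaled TPM in young and 7.19 to 14.7 in old (log2 0.65 ± 0.21). Its log2 difference at the other 4 times was -0.24. Its relatives Dbp and Tef overlapped between ages, with log2 differences of 0.16 ± 0.30 and 0.20 ± 0.19.

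Genes of metal handling held 2 members higher and 2 lower at an unadjusted p under 0.05 among 15 tested, where 2.49% and 2.58% of all tested genes lay so. Hamp, which encodes the iron hormone hepcidin, had 3525.7, 2324.1, 2073 and 2181.4 scaled TPM in young and 4708.5, 4809.8, 4520.8 and 3112 in old (log2 0.78 ± 0.18, limma adjusted p = 0.478), higher in old at each time. Slc39a14, a zinc and iron importer, had 29.2 to 47.3 scaled TPM in young and 51.3 to 69.7 in old. The zinc importer gene Slc39a4 had 22.8 to 52.0 in young and 11.3 to 26.4 in old, and the transferrin receptor gene Tfrc 8.82 to 25.1 and 5.98 to 15.4. The Hamp difference was 0.29 at the other 4 times, and the test of that contrast gave a limma unadjusted p of 0.144.

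Other list members with small p-values were spread thinly. Cdkn2c, an inhibitor of cell cycle kinases, had 3.70 to 5.63 scaled TPM in young and 1.70 to 3.16 in old (log2 -0.79 ± 0.16). Fkbp11, a folding factor of the secretory pathway, had 17.6 to 27.8 in young and 9.02 to 17.1 in old (log2 -0.87 ± 0.22), and the sinusoidal endothelial marker Lyve1 4.95 to 7.33 and 1.69 to 5.34 (log2 -0.87 ± 0.27). Gstp1, a glutathione transferase, had 1374.9 to 1641.7 in young and 721 to 1324.2 in old (log2 -0.59 ± 0.19). None of these passed the adjusted threshold.

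A run of neighbouring genes on distal chromosome 4, noticed after the values were seen, lay higher in old. Between positions 145745746 and 147642513 (GRCm38), 9 of 14 tested genes separated higher at both times and 0 lower, where 2.98% of all genes separated higher. As the run was picked out by these same values, the count beside that share is a description only. Besides Gm13248, Gm13152 had 6.30 to 8.46 scaled TPM in young and 13.6 to 19.3 in old, and 2610305D13Rik 0.16 to 0.73 and 2.03 to 4.43. This region holds many near-identical zinc finger genes, and how reads were divided among them cannot be told from the files. The values at the other 4 times were similar, with Gm13152 at 4.81 to 11.9 scaled TPM in young and 9.69 to 26.6 in old.

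The age difference at ZT22 and ZT2 was then set against that at ZT6, ZT10, ZT14 and ZT18. Of 12234 genes tested 0 passed the adjusted threshold (limma), 319 (2.61%) had an unadjusted p under 0.05, 131 (1.07%) with the more positive and 188 (1.54%) with the more negative difference around lights on, and so no gene was shown to differ by age in these hours in particular. The smallest p was that of Cyp1a1, a P450 induced through the aryl hydrocarbon receptor. In young it had 0.13, 0.51, 0.42 and 0.12 scaled TPM and in old 4.53, 4.79, 0.42 and 0.22, so it was high only in the old ZT22 libraries among the 8. At the other 4 times it ran from 0.32 to 6.92 in young and from 0 to 0.48 in old, and the log2 contrast was 2.98 (limma adjusted p = 0.558).

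Paqr7, a membrane progestin receptor, had 7.24 to 10.6 scaled TPM in young and 12.9 to 16.02 in old at ZT22 and ZT2, against 12.3 to 22.1 and 10.4 to 20.9 at the other times (log2 contrast 0.77, limma unadjusted p = 0.000577). Of the named genes with the more negative contrast, Tgtp1 differed by log2 -1.52 (limma unadjusted p = 0.000500), and Serpina3g, a protease inhibitor, by -0.93 (limma unadjusted p = 0.000346). Serpina3g had 7.64 to 10.97 scaled TPM in young and 5.27 to 7.87 in old around lights on, and reached 29.1 in 1 old library at the other times.

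For the rest of the named genes, too, no contrast passed the adjusted threshold. Blzf1 (log2 contrast 0.72), the mitochondrial tRNA gene mt-Tp (1.12) and Osbpl1a, an oxysterol-binding protein (0.49), had the more positive age difference at ZT22 and ZT2. For each, both old libraries lay above both young ones at ZT22, and the ages overlapped at ZT2. The age difference of mt-Tp was log2 1.49 at ZT22 and -0.58 at ZT2. Rab11b, a GTPase of recycling endosomes, had the more negative one (-0.93), with 11.3 to 21.9 scaled TPM in young and 11.1 to 16.6 in old. Dynlt1f (log2 contrast -4.55, limma unadjusted p = 0.000492) was listed at 0 in all 8 young libraries of the other 4 times. Around lights on it had 4.31 to 8.15 scaled TPM in young and 0 to 3.48 in old. Prtn3, a neutrophil protease, had a log2 contrast of -2.63 (limma unadjusted p = 0.000132). It was at 0.77 scaled TPM or less in young and 0 to 2.37 in old around lights on, but reached 23.9 in 1 old library at the other times.

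Last, the age difference at ZT2 was set against that at ZT22. Of 12155 genes, 2 had a more positive difference at ZT2 (0.0165%) and 1 a more negative one (0.00823%) at an adjusted p under 0.05, 0.0247% in all. At an unadjusted p under 0.05 there were 242 (1.99%), 119 (0.979%) more positive and 123 (1.01%) more negative. All 3 had values at or near 0 in some libraries and not in others, so the size of their fitted contrasts depends on the pseudocount. Cyp2a22 had 29.5 and 21.4 scaled TPM at ZT22 and was listed at 0 in both ZT2 libraries in young, with 2.36 to 3.04 in all old libraries (limma adjusted p = 0.00547). Cyp2c69 was listed at 0 in both young ZT22 libraries, had 83.3 and 51.3 in young at ZT2 and 0 to 0.42 in old (limma adjusted p = 0.0109). The polyubiquitin gene Ubb had 64.7 and 131 scaled TPM at ZT22 and 1.15 and 2.55 at ZT2 in young, and 152 to 215 in old (limma adjusted p = 0.0393).

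Each of these 3 genes has close copies in the genome. Cyp2c69 was listed at 0 in 16 of the 24 libraries and Ubb was under 5 scaled TPM in 12, and young and old libraries were among them. Gng10 and the overlapping gene Gm20503, named after its values were seen, showed the same alternation: Gng10 had 6.15 to 9.96 scaled TPM in 6 libraries and was at 0 and 0.00496 scaled TPM in the old ZT2 libraries, where Gm20503 had 7.54 and 7.77. Their sum was 6.15 to 9.96 in all 8 libraries. How reads were divided between overlapping or near-identical genes was not tested.

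Genes with a steadier signal did not pass in this contrast. Ndrg1, a stress-responsive gene, had 17.2 and 22.1 scaled TPM at ZT22 and 17.8 and 18.2 at ZT2 in young, and 11.3 and 10.2, then 20.1 and 21.7 in old (log2 contrast 1.05, limma unadjusted p = 0.00458). The heat shock cochaperone Dnaja1 had 104 and 77.1, then 145 and 129 scaled TPM in young, and 102 and 97.4, then 65.7 and 73.9 in old (log2 contrast -1.12, limma unadjusted p = 0.00431). Hspa8, the constitutive chaperone it serves, named after its values were seen, had 245 and 230, then 417 and 463 in young, and 287 and 321, then 280 and 307 in old (log2 contrast -0.94, limma unadjusted p = 0.00490). For both chaperone genes the young libraries were higher at ZT2 than at ZT22 and higher than the old libraries at ZT2.

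Of the other named genes in this contrast, Phyhd1, a dioxygenase, had 33.8 and 35.4 scaled TPM at ZT22 and 72.3 and 72.7 at ZT2 in young, and 40.8 and 62.9, then 21.1 and 33.2 in old (log2 contrast -1.98, limma unadjusted p = 0.00121). Stam, a protein of endosomal sorting, had 9.11 and 6.15, then 18.3 and 10.3 in young, and 14.2 and 14.6, then 7.04 and 6.21 in old. Rbm43 went the other way, with 3.68 and 4.72, then 2.22 and 2.61 in young, and 3.21 and 3.41, then 5.23 and 5.34 in old. For these 3 genes the ages separated in opposite directions at the 2 times. Cyp2a4, which has near-identical copies, had 66.7 and 71.5 scaled TPM in young at ZT22 and was listed at 0 in both young ZT2 libraries and in 3 of 4 old ones (limma adjusted p = 0.0652).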

How the data were processed

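Per the labels' protocols, mRNA was selected with oligo-dT and sequenced as strand-specific single 50-base reads. Per the submitters' processing notes, HISAT2, StringTie and GRCm38 were used, with no versions given in the sources used here. The deposited TPM were scaled by the authors' pipeline to sum to 1000000 per library. The deposited FPKM are scaled for length and depth by the authors' pipeline, and the deposited coverage is the read coverage per base that the authors gave for each gene. Coverage and FPKM together gave mapped depth. No read counts were in the files used here, so counting error of single values is unknown.

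TPM of rows with the same gene ID were summed (43629 IDs) and made comparable between libraries by median-of-ratios scaling, with factors from the 13270 genes whose TPM exceeded 0 in each of the 24 libraries. Genes with a mean of at least 1 scaled TPM over the 8 libraries were kept. Age and time were terms of a linear model of log2(scaled TPM + 0.5), fitted in limma 3.58.1 with an intensity trend under R 4.3.3. Fold changes on that scale understate the change of low genes. The contrast against the other 4 times used all 24 libraries in 12 groups, and ZT2 against ZT22 used 4 groups. Genes passed at a p under 0.05 after Benjamini-Hochberg adjustment over all genes tested. Tables were made with pandas 2.3.3 and numpy 2.4.6 and plots with matplotlib 3.10.9, under Python 3.11.15. The fits were tested on simulated data.

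Replicate numbers are treated as possibly pairing the libraries. Deviations of same-numbered libraries correlated between all 6 pairs of the 4 groups (r = 0.121 to 0.304), but the labels do not say what the number marks. With only 4 groups, these correlations cannot show that the numbers pair the libraries. No 2 libraries held identical values.

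Genes were named by rule: with fewer than 5 genes past the threshold in a direction, the 10 with the smallest p and at least 5 scaled TPM in the higher age. For lists these were up to 4 members with the smallest p and the core clock genes, and for the other contrasts the 5 with the smallest p in each direction. Some further list members are given for their role. A few list members are counted but not reported here by name. Predicted genes and clone names were counted, not named, except where said. The gene lists (44, of which 719 entries matched by name, 3 by an older symbol and 2, Iglc1 and Iglc3, not at all), the members and the times were chosen with earlier results of these data known. Lists are described by counts and medians with no test.

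Alternatives were the deposited TPM and FPKM unscaled, quantile normalization, pseudocounts of 0.1 and 1, no filter, a filter at 5, the replicate block, no intensity trend, factors over 8 libraries, all 24 libraries, each time alone and leaving out each library.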

Additional observations from a re-analysis of the deposited data

Results flagged for a closer look

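Groups of 4 libraries of 1 age were screened for a library far from the other 3. Gene and list values were on the log2(scaled TPM + 0.5) scale, and depth and mitochondrial share were taken without logs. Of 146 groups in all 9 were picked out, where chance alone picks about 1 in 20. The mean of the 23 acute phase genes was 8.68 in old ZT2 replicate 1 and 7.601 to 7.643 in the other old libraries. The mean of 12 hepatocyte markers was 11.15 in old ZT22 replicate 1 against 11.47 to 11.52. The mean of 4 T and NK cell markers was 0.48 in young ZT22 replicate 2 against 1.89 to 2.12. The mitochondrial share was 17.15% in young ZT22 replicate 1 against 13.002% to 13.3%. Arntl was 3.47 in young ZT22 replicate 1 against 3.78 to 3.84, and Cry2 was 3.31 in young ZT22 replicate 2 against 2.55 to 2.66. Ifit3 was 2.79 in old ZT2 replicate 2 against 3.12 to 3.18, and Ergic2 was 5.96 in old ZT22 replicate 2 against 5.43 to 5.50. Igkv5-39 was 0.14 in young ZT22 replicate 1 and at -1 in the other young libraries, the value of a gene listed at 0.

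For 3 genes the age difference at ZT2 differed from that at ZT22 by the interaction test of limma: the fitted log2 contrasts were 5.79 for Cyp2a22, 5.79 for Ubb and -7.48 for Cyp2c69. They rest on libraries where the gene is listed at or near 0, so the pseudocount sets their size and they are not measures of fold.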

How the results depend on the processing

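The count of 4 genes with an age difference went to 2 with a filter at 5 TPM, 0 with the replicate block, 11 with all 24 libraries in the fit and 2 at ZT22 alone, and ranged from 0 to 3 when each library was left out; the other 9 alternatives stayed within 1.5 times. All 11 in the fit of 24 libraries were higher in old, among them Fitm1, Serpine2, Igkv5-39, Ighg2c and Serpinb1a. The 2 at ZT22 alone were Cyp3a16 and Cyp2a4, both listed at 0 in the old ZT22 libraries, and the 6 at ZT2 alone, 3 higher and 3 lower, held none of the 4. For the contrast with the other 4 times, 0 genes became 2 without a filter and 0 to 22 when a library was left out, 22 being without young ZT18 replicate 1; the replicate block left it at 0. For ZT2 against ZT22, 3 genes became 6 with unscaled FPKM, 5 with a pseudocount of 1, 5 without the trend and 0 in the fit of all 24 libraries, and 2 to 12 when a library was left out, 12 being without old ZT2 replicate 2; the replicate block gave 4. The interferon median ranged from -0.59 to -0.39 with a library left out and was -0.27 at ZT22 alone. Its 14 members at an unadjusted p under 0.05 became 9 with unscaled TPM, 9 with a filter at 5 TPM and 6 at ZT22 alone, and 10 to 15 with a library left out. At ZT22 alone 274 of 12155 tested genes were at that p in either direction, against 617 with both times. The immunoglobulin median ranged from 1.58 to 2.37 and its 8 members stayed 8 with a library left out. Of the named genes' values under the alternatives run, 0 changed direction. The causes of these shifts were not tested, except that a stricter filter tests fewer members (17 interferon genes). Unscaled TPM moved the median of all genes to 0.06. With 2 libraries per age and time, and no read counts, low genes are the least certain.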
